A study of Mus musculus with 12 samples.

Results

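Rasgrf1 and 6 other regulators of the small GTPase Ras were examined in whole somatosensory cortex of mouse pups: the exchange factors Rasgrf1, Rasgrf2, Sos1, Sos2 and Rasgrp1 and the GTPase-activating proteins Nf1 and Rasa1. The members were taken by gene symbol from the deposited tables, which gave 7 genes of 24452 and 8 transcripts of 35840, since Rasgrf1 was listed with 2 transcripts and each other gene with 1. All 7 genes and all 8 transcripts passed the filter on low counts, along with 14739 genes and 21715 transcripts in all. Rasgrf1 was chosen by its values in these same libraries, its difference with ethanol among them, so its differences are given as a description without a test.

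The pups were male C57BL/6 mice at postnatal day 7, and 4 groups of 3 libraries were compared, each library from one animal: WT with saline, WT with ethanol, p53 KO with saline and p53 KO with ethanol. The KO carried a germline deletion in Trp53, the gene of p53, in every cell, and WT and KO pups were offspring of heterozygous parents. Saline or ethanol (EtOH) was given by intraperitoneal injection, and tissue was taken 8 h after the last one. Each library is named by its group and its number in the labels, in the order WT saline 1, 3 and 13, WT ethanol 4, 5 and 14, KO saline 7, 8 and 9, and KO ethanol 10, 12 and 18.

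Ras proteins are switches that are active when bound to GTP and inactive when bound to GDP. Exchange factors load Ras with GTP, whereas GTPase-activating proteins (GAPs) speed its hydrolysis and turn Ras off. Active Ras recruits Raf kinases and thereby starts the MEK and ERK cascade, which in neurons links synaptic activity and growth factors to transcription and plasticity. The exchange factors differ in their inputs: RasGRF proteins bind calmodulin and answer to calcium, Sos proteins are brought to growth factor receptors by the adaptor Grb2, and Rasgrp1 binds diacylglycerol and calcium. Rasgrf1 is also an imprinted gene in the mouse, expressed mainly from the paternal allele in newborn brain.

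The 2 Rasgrf1 transcripts shared their start site, which lay on the plus strand of chromosome 9 at position 89909775 (mm10). NM_011245, the full-length form, ended at 90026979 in the files. In the GENCODE vM21 models, from which exons, lengths and codons are taken and whose first exon begins at 89909909, 134 bases further on, it had 27 exons with 1262 codons including the stop. NM_001039655 ended at 89915847 in the files, had 3 exons with 178 codons including the stop, and ran over the first 6.07 kb of the gene. The models had a single exon in common, the first, of 365 bases, so that 488 of the 853 bases of the short form and 3727 of the 4092 bases of the long form were their own.

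**Figure D1:**
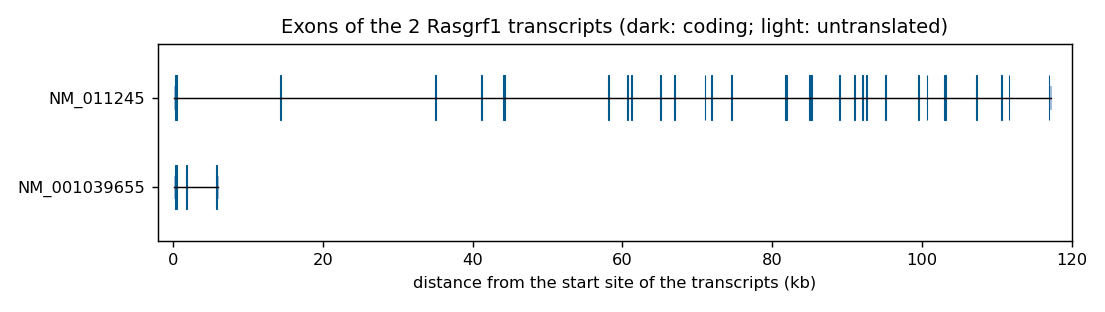
Exon map of the 2 Rasgrf1 transcripts, with the distance from their common start site in the files in kb on the x axis and 1 row per transcript. Dark boxes are coding and light boxes untranslated parts of exons; NM_001039655 covers 6.07 kb and shares the first exon with NM_011245, which has 27 exons over 117 kb.

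The promoter of Rasgrf1 is shown because both of its transcripts begin there. That of Rasgrp1 is shown because, of the exchange factors other than Rasgrf1, it passed the test level in WT mice. Each window runs 5′ to 3′ from 250 bases before to 50 bases after a RefSeq start site on GRCm38.p6. It lies at chr9:89909525-89909824 on the plus strand for Rasgrf1 and at chr2:117342828-117343127 on the minus strand for Rasgrp1. The RefSeq span of the Rasgrf1 gene begins further upstream, at 89909508, so the Rasgrf1 window lies inside that span. Capitals mark the Sp1 box GGGCGG and the cAMP response core TGACG, each searched on both strands.
Rasgrf1: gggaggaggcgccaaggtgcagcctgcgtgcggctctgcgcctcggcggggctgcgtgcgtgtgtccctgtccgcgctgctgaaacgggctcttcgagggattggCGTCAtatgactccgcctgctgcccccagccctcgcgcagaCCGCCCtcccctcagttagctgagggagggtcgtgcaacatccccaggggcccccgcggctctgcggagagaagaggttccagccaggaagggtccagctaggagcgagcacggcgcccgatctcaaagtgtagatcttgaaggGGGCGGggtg
Rasgrp1: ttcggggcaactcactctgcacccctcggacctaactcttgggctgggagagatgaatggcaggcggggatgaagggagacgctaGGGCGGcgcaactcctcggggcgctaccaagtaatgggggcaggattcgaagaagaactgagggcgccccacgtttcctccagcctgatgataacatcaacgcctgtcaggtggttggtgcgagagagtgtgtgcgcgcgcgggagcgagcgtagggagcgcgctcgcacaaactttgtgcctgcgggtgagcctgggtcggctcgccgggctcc

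The Rasgrf1 window had 68.3% G and C and 26 CpG dinucleotides, and the Rasgrp1 window had 63.7% and 26, against medians of 52.7% and 7 over 32851 mouse promoters. The Rasgrf1 window held 2 Sp1 boxes and 1 cAMP response core, and the Rasgrp1 window held 1 Sp1 box. An Sp1 box stood in 35.7% of all promoters and in 5 of the 7 members, all but Rasgrf2 and Sos1. A TGACG core stood in 20.8% of all promoters and, among the members, in those of Rasgrf1 and Rasgrf2. The letters TATAAA, the TATA box, and TGACTCA, an AP-1 site, were found in 0 of the 7 windows, and stood in 13.6% and 5.2% of all promoters. The RefSeq start of Rasgrf2 lay 144 kb from the start of its transcript in the files, so its window is not that of the counted model.

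Totals of the libraries ran from 719735 to 17066392 counts, with KO ethanol 12 the shallowest and WT saline 3 next at 1953154. The Trp53 deletion was checked through the Trp53 transcripts. The estimated share of NM_001127233 in the Trp53 counts was 7.01% to 23.1% in the 6 WT libraries and 65.7% to 70.6% in the 3 KO saline libraries. It was 70.6% in KO ethanol 10, 48.3% in KO ethanol 18 and 7.01%, on 14 counts, in the library labelled KO ethanol 12. WT saline 1, WT saline 3 and WT ethanol 5 had the same 7.01%, on 20, 51 and 78 counts. Whether the authors' apportioning of reads set this repeated value was not tested. The genotype of KO ethanol 12 is therefore not read from it and stays unchecked. Where the account of a single member prints a main estimate that involves KO ethanol, its value without that library is therefore given too. The accounts of Sos2 and Nf1 print no such estimate, and ranges and medians over the members include that library. Levels are CPM, counts scaled to a common library size with TMM factors, and in whole tissue fewer cells of a type and less RNA per cell cannot be told apart.

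Long transcripts as a class were higher in WT ethanol than in WT saline, and the members are long. The median log2 fold change by quartile of transcript length, shortest first, was -0.62, -0.06, 0.22 and 0.53 in WT ethanol against WT saline. In KO saline against WT saline the shortest quartile had a median of -0.73 and the longest 0.57, and in KO ethanol against KO saline 0.39 and -0.27. The most abundant transcripts of the members ran from 3567 bases for Rasgrf2 to 11917 for Nf1. Estimates of the members are therefore also given after the trend of each library with length and GC content was removed.

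Per kilobase of transcript, Rasgrf2 was the most abundant member, with a median over the 12 libraries of 28.2 CPM per kb. Rasgrp1 followed at 21.7, Rasa1 at 12.3, Rasgrf1 at 6.77 with the length of its long form, Sos1 at 5.51, Nf1 at 5.05 and Sos2 at 4.82 CPM per kb. The ranges of all neighbours in this order overlapped. The lowest library of Rasgrp1, at 11.03 CPM per kb, lay above the highest of Sos1, at 10.1, and Rasgrf2 had its lowest library at 14.2. Rasgrf1 varied most, 15.1-fold between its lowest and highest library, and Sos1 least, 2.50-fold. Rasa1 varied 14.2-fold, with its lowest value, in KO ethanol 12, resting on 5 counts.

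**Figure D2:**
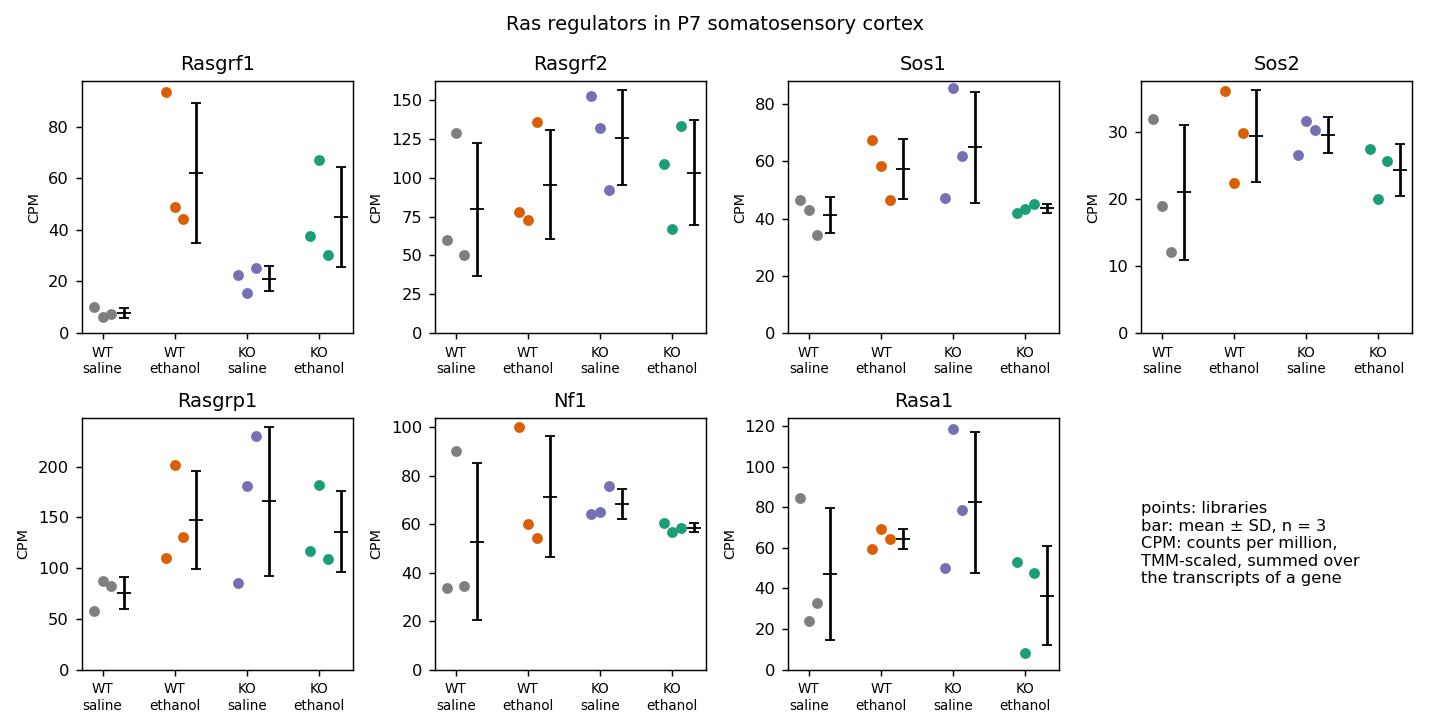
Level of each member in CPM on the y axis, by group on the x axis, with 1 point per library and a bar for the mean ± SD of 3 libraries. Rasgrf1 was between 6.17 and 10.1 CPM in WT saline and between 15.5 and 93.3 CPM in the other 9 libraries, whereas the groups of Rasgrf2 and Sos2 overlap in every comparison.

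Rasgrf1, summed over both transcripts, was lowest in WT saline and highest in WT ethanol. Its CPM were 10.1, 6.17 and 7.28 in WT saline and 93.3, 48.6 and 44.3 in WT ethanol. They were 22.6, 15.5 and 25.2 in KO saline and 37.7, 66.9 and 30.2 in KO ethanol. The groups of WT mice did not overlap, nor did the KO saline and KO ethanol groups, nor the saline groups of the genotypes, whereas WT ethanol and KO ethanol did. The means were 7.85 ± 2.03, 62.1 ± 27.1, 21.1 ± 5.01 and 44.9 ± 19.4 CPM (SD, n = 3) in that order of groups.

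As a description, ethanol was associated with a 7.82-fold higher fitted level of Rasgrf1 in WT mice, a log2 fold change of 2.97 (SE 0.45). In KO mice it was 2.06-fold higher, a log2 fold change of 1.05 (SE 0.42). With saline, KO mice had a 2.66-fold higher level than WT mice, and the log2 fold change was 1.41 (SE 0.43). With ethanol, the KO minus WT difference was -0.51 (SE 0.41) on the log2 scale. The ethanol difference in KO mice was smaller than that in WT mice by a log2 fold change of -1.92 (SE 0.59). The comparisons of WT ethanol and of KO saline with WT saline share the 3 WT saline libraries, which held 55, 12 and 98 Rasgrf1 counts.

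Without the library labelled KO ethanol 12, which had the highest Rasgrf1 level of its group at 40 counts, the ethanol difference in KO mice was 0.68 on the log2 scale. The KO minus WT difference with ethanol was then -0.87, and the difference between the genotypes in the ethanol effect was -2.28. With the length and GC trend removed, the log2 fold change was 2.39 in WT mice, 1.36 in KO mice and 0.89 between the saline groups, and it was -0.14 between the ethanol groups and -1.03 for the difference in the ethanol effect. The deposited RPKM are scaled otherwise than CPM and had nearly the same distribution in all 12 libraries. On log2(RPKM + 1), where the short transcript also weighs more, the log2 fold change was 1.52 in WT mice and 0.84 in KO mice. The difference between the saline groups was then 0.23.

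The long transcript had the larger differences. NM_011245 had 2.56 to 5.13 CPM with saline and 41.0 to 87.9 CPM with ethanol in WT mice, and 12.3 to 22.4 and 26.7 to 59.7 CPM in KO mice. Its log2 fold change was 3.81 (SE 0.51) for ethanol in WT mice, 1.10 (SE 0.46) for ethanol in KO mice and 2.16 (SE 0.49) for KO against WT with saline. Without the library labelled KO ethanol 12 the second of these was 0.72. NM_001039655, the short form, had between 2.41 and 6.61 CPM in all 12 libraries. Its KO ethanol libraries lay above those of KO saline without overlap, with a log2 fold change of 0.51 (SE 0.60, edgeR adjusted p = 1.000), which became 0.23 without that library, and the other groups compared overlapped. Its log2 fold change for ethanol in WT mice was 0.28 (SE 0.58, edgeR adjusted p = 0.823 over 21715 transcripts), with 2 standard errors either side running from -0.88 to 1.44.

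The long form therefore made up different shares of the Rasgrf1 counts. In WT saline it was 37.5% of 55 counts, 41.7% of 12 and 68.1% of 98, with 95% Wilson intervals of 26.5% to 51.4%, 19.3% to 68.0% and 58.6% to 76.7%. In the other 9 libraries it was between 79.8% and 94.8%, and the lowest of these, in KO saline 8, had an interval of 74.4% to 84.0%. The 3 WT saline libraries thus had the 3 lowest shares. Reads in the shared first exon were apportioned between the transcripts by the authors' estimate, which these intervals do not cover.

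**Figure D3:**
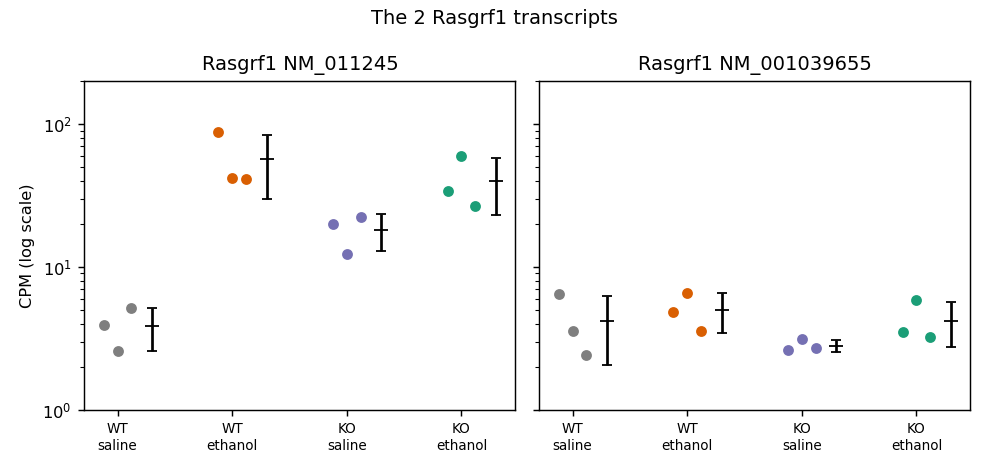
Level of the long (NM_011245, left) and short (NM_001039655, right) Rasgrf1 transcripts in CPM on a log axis, by group on the x axis, with 1 point per library and a bar for the mean ± SD of 3 libraries. The long form lies between 2.56 and 5.13 CPM in WT saline and reaches 87.9 CPM in WT ethanol, and the short form stays between 2.41 and 6.61 CPM.

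Markers of neighbouring tissue differed between the libraries. Part of the samples were cut out by laser and the others punched from frozen brain, and which library was taken in which way is not given in the sources used here. The summed level of 4 of 4 striatal markers (Drd1, Drd2, Ppp1r1b, Adora2a) was 55.1 to 86.7 CPM with saline and 43.0 to 607 with ethanol in WT mice, and 36.3 to 112 and 62.3 to 261 CPM in KO mice. The summed level of 3 of 3 thalamic markers (Tcf7l2, Lhx9, Slc17a6) was 65.8 to 179.7 CPM with saline and 54.6 to 1108 with ethanol in WT mice, and 43.4 to 126 and 35.1 to 66.5 CPM in KO mice. No marker of either list was at 0 in all 12 libraries.

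WT ethanol 4 had the highest Rasgrf1 level and, with 43.0 CPM, the lowest striatal sum of its group, but the highest thalamic sum of all. It also had the highest sum of the 3 choroid plexus markers (Ttr, Folr1, Kl), 4953 CPM, against 3.09 to 118 CPM in WT saline, 27.0 to 2238 in KO saline and 0 to 2201 in KO ethanol. Without it the log2 fold change of Rasgrf1 in WT mice was 2.53. WT ethanol 14 had the highest striatal sum and the lowest Rasgrf1 level of its group, and without it the value was 3.09. WT ethanol 5 had a thalamic sum of 68.9 and a choroid plexus sum of 20.6 CPM, both within the WT saline range, a striatal sum of 277 CPM and a Rasgrf1 level of 48.6 CPM.

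The summed level of 3 of 3 red blood cell markers (Hbb-bs, Hba-a1, Alas2) was 201 to 954 CPM with saline and 37.4 to 104 with ethanol in WT mice, and 28.9 to 69.7 and 22.7 to 557 CPM in KO mice. WT saline thus lay above WT ethanol and KO saline in this list without overlap, in the opposite direction to Rasgrf1. The 7 of 7 excitatory cortical markers summed to between 897 and 1732 CPM in every library. In WT mice the sum was 1271 to 1646 CPM with saline and 897, 1732 and 1013 CPM in WT ethanol 4, 5 and 14. The median log2 fold change of these markers for ethanol in WT mice was -0.77, with 1 higher and 1 lower past the level. The part of tissue makeup, or of the way the tissue was taken, in the Rasgrf1 differences was not tested.

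Rasgrf2, the close homologue of Rasgrf1, had overlapping groups throughout. Its CPM were 59.7, 129 and 50.5 in WT saline and 78.0, 72.7 and 136 in WT ethanol. They were 153, 132 and 92.4 in KO saline and 109, 66.9 and 134 in KO ethanol. Ethanol gave a log2 fold change of 0.27 (SE 0.42) in WT mice, with an edgeR adjusted p of 0.749, and -0.27 (SE 0.42) in KO mice, with an adjusted p of 0.999. In WT mice 2 standard errors either side ran from -0.58 to 1.12. Without the library labelled KO ethanol 12 the value in KO mice was -0.05, and with the length and GC trend removed the values were -0.09 in WT mice and -0.08 in KO mice.

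Sos1, which couples receptor tyrosine kinases to Ras, had 46.49, 43.2 and 34.2 CPM in WT saline and 67.4, 58.3 and 46.55 CPM in WT ethanol, groups that just missed overlapping. It had 47.2, 85.6 and 61.9 CPM in KO saline and 42.1, 43.5 and 45.3 CPM in KO ethanol. Sos1 was higher in KO saline than in WT saline, with a log2 fold change of 0.65 (SE 0.32, edgeR adjusted p = 0.271), a call lost in 15 of 23 alternatives. The ethanol difference was 0.48 (SE 0.32, adjusted p = 0.421) in WT mice and -0.57 (SE 0.32, adjusted p = 0.999) in KO mice. After removal of the length and GC trend these 3 values were -0.23, -0.28 and 0.29, and without the library labelled KO ethanol 12 the last was again -0.57.

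Sos2, its paralogue, had the lowest median level per kb of the members over the 12 libraries. In WT mice it had 32.0, 19.0 and 12.1 CPM with saline and 36.1, 22.3 and 29.9 with ethanol. In KO mice it had 26.6, 31.7 and 30.4 CPM with saline and 27.5, 20.1 and 25.6 with ethanol. The groups overlapped. Its log2 fold change was 0.49 (SE 0.38) both for WT mice given ethanol and for KO against WT with saline, and neither passed the level. With the length and GC trend removed they were -0.08 and -0.12.

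Rasgrp1 rose with ethanol in WT mice and was higher in KO than in WT mice with saline. It had 57.7, 87.4 and 82.1 CPM in WT saline and 109.6, 202 and 131 in WT ethanol, and these groups did not overlap. It had 85.9, 181 and 230.1 CPM in KO saline and 117, 182 and 109 in KO ethanol, with KO saline 7 inside the WT saline range. In WT mice its log2 fold change with ethanol was 0.96 (SE 0.41, edgeR adjusted p = 0.242), and it was 1.13 (SE 0.41, adjusted p = 0.185) for KO against WT with saline. Both comparisons share the WT saline libraries.

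The call of Rasgrp1 in WT mice was lost on leaving out WT saline 1 or 13, any of the 3 WT ethanol libraries, KO saline 9 or KO ethanol 10, with adjusted p between 0.303 and 0.519. After removal of the length and GC trend its log2 fold change was 0.39 (adjusted p = 0.684) in WT mice and 0.45 (adjusted p = 0.657) between the saline groups. In KO mice ethanol gave -0.30 (SE 0.41, edgeR adjusted p = 0.999), which was -0.55 without the library labelled KO ethanol 12 and 0.42 with the trend removed.

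Nf1 encodes neurofibromin, a large GAP that keeps Ras inactive in neurons and glia, on chromosome 11, 9.75 Mb from Trp53, the gene deleted in the KO. In WT mice it had 33.8, 90.0 and 34.5 CPM with saline and 99.9, 59.9 and 54.1 with ethanol. In KO mice it had 64.3, 65.1 and 75.5 CPM with saline and 60.6, 56.8 and 58.2 with ethanol. WT saline 3 lay apart from the other WT saline libraries, above all KO libraries. Nf1 differed by a log2 fold change of 0.45 (SE 0.40, edgeR adjusted p = 0.552) with ethanol in WT mice and of 0.39 (SE 0.40, adjusted p = 0.607) for KO against WT with saline. Without WT saline 3 these values were 1.00 and 0.97, both past the level, and after removal of the length and GC trend they were -0.43 and -0.49, neither past it.

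Rasa1 encodes p120 RasGAP, which binds activated receptor tyrosine kinases. WT mice had 84.3, 24.2 and 32.9 CPM with saline and 59.3, 69.4 and 64.3 with ethanol. KO mice had 49.9, 119 and 78.6 CPM with saline and 52.9, 8.36 and 47.7 with ethanol. KO ethanol lay below WT ethanol without overlap, and its lowest value, in the library labelled KO ethanol 12, was 5 counts. Its estimates on the log2 scale were -0.75 (SE 0.56, edgeR adjusted p = 0.982) for KO against WT with ethanol and -1.10 (SE 0.56, adjusted p = 0.999) for ethanol in KO mice. Without that library they were -0.35 and -0.71, and with the length and GC trend removed -0.30 and -0.52.

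The level is 0.30 on the edgeR adjusted p, and each count is set beside the share of all 14739 genes past it. Rasgrf1 was chosen on these contrasts, so the counts are of the other 6 members. In WT ethanol against WT saline the count was 1 of 6, Rasgrp1, with 22.5% of all genes past the level. In KO saline against WT saline it was 2 of 6, Rasgrp1 and Sos1, with 25.8% of all genes. In the test of whether the ethanol difference itself differed between the genotypes it was 0 of 6, with 11.1% of all genes. The shares of all genes rest on single libraries: in WT ethanol the count of genes past the level fell from 3310 to 71 without WT ethanol 4 and to 195 without WT saline 1. In KO saline it fell from 3799 to 37 without WT saline 1 and to 9 without KO saline 8 or KO saline 9, and for the difference between the genotypes from 1632 to 0 without WT ethanol 4, KO saline 8 or KO saline 9.

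In KO ethanol against KO saline and in KO ethanol against WT ethanol 0 of these 6 members passed in edgeR, as did 0% of all genes in each. In each comparison 0 of the 6 members other than Rasgrf1 had an unadjusted p under 0.05, 465 and 477 of all genes did, and DESeq2 passed 0 members and 3 genes in each. For ethanol in KO mice the log2 fold changes of these 6 ranged from -1.10 to -0.22.

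In WT ethanol 3 members (Rasgrf1, Sos1, Rasgrp1) lay above WT saline without overlap, as did 11.2% of all genes. In KO saline 2 members (Rasgrf1, Sos1) lay above WT saline, as did 12.9% of all genes. In KO ethanol Rasgrf1 lay above KO saline, as did 3.89% of all genes, while 2 members (Sos1, Nf1) lay below it, as did 6.87% of all genes. In KO ethanol 2 members (Sos1, Rasa1) lay below WT ethanol, as did 8.7% of all genes.

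The 6 members other than Rasgrf1 all had estimates above 0 for ethanol in WT mice, with a median of 0.46 on the log2 scale, and below 0 in KO mice, with a median of -0.28. The corresponding medians of all genes were 0.06 and 0.01, and those of the longest quartile of genes 0.53 and -0.27. Of these 6 members all but Rasgrf2 belong to that quartile. Tested for the difference between the genotypes, Sos1 had -1.05 (SE 0.46, edgeR adjusted p = 0.305) and Rasgrp1 -1.26 (SE 0.58, adjusted p = 0.322), the lowest 2 adjusted p of these 6. With the trend removed these values were 0.57 and 0.03, and without the library labelled KO ethanol 12 they were -1.05 and -1.52.

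**Figure D4:**
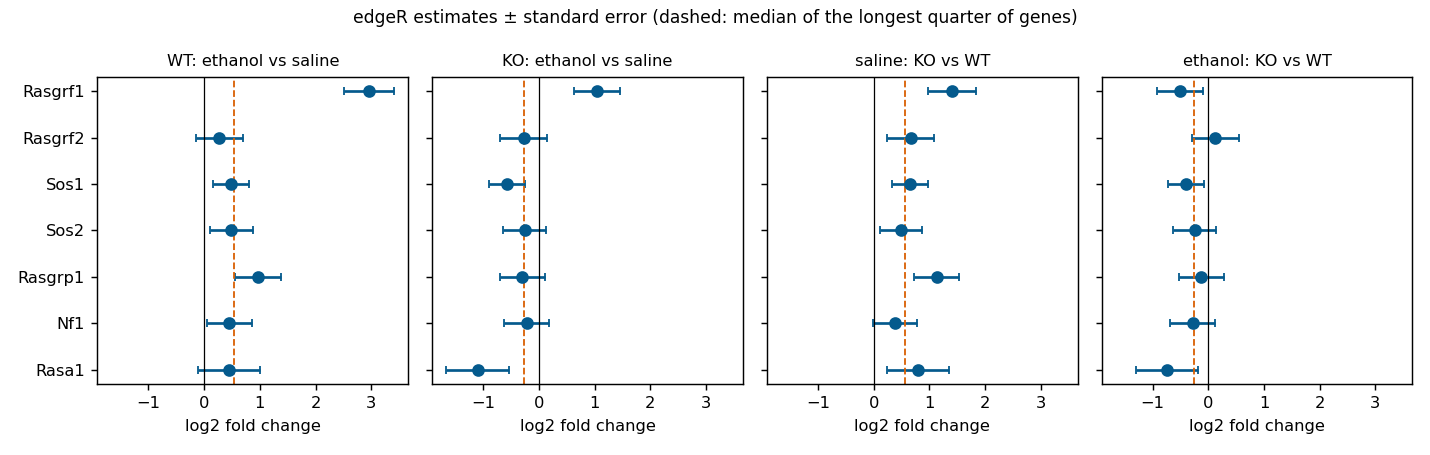
Log2 fold change of each member on the x axis, as edgeR estimates ± SE, in 4 comparisons, with a dashed line at the median of the longest quartile of all genes. For ethanol the dashed lines are at 0.53 in WT mice and -0.27 in KO mice, and Rasgrf1, chosen by its values here, lies at 2.97 and 1.05. The lines are for genes of at least 4434 bases. Rasgrf1 (4092 bases) and Rasgrf2 (3567 bases) belong to the next shorter quartile, with medians of 0.22 and -0.10.

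The other genes of the Ras to ERK pathway were read from 6 lists with 48 genes, of which 47 were tested and Spry3 was not. Ethanol in WT mice was associated with 9 genes higher and 2 lower, 23.4% of those tested against 22.5% of all genes. KO mice with saline had 14 genes higher and 3 lower than WT mice, 36.2% against 25.8% of all genes. Ethanol in KO mice gave 0 genes in edgeR, as did KO against WT with ethanol. The difference between genotypes passed for 1 gene above 0 and 9 below 0, 21.3% of those tested against 11.1% of all genes. Without WT ethanol 4 the count in WT ethanol was 0, beside 0.476% of all genes. Without WT saline 1 it was 2 higher and 0 lower, beside 1.30% of all genes. In KO saline it was 0 without WT saline 1, KO saline 8 or KO saline 9, and for the difference between the genotypes it was 0 on leaving out each of these 4 libraries in turn. With the length and GC trend removed, 3 of the 47 genes were higher and 3 lower in WT ethanol, beside 16.1% of all genes. In KO saline 6 were then higher and 2 lower, beside 11.1% of all genes. For the difference between the genotypes 0 were then above 0 and 2 below 0, beside 0.185% of all genes. The median log2 fold change over the 47 genes was 0.31 in WT mice and -0.25 in KO mice. Named pathway genes other than Ksr2, Shc3, Spred1, Spred2 and Gab2 were chosen after their values were seen.

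Among the Ras GTPases, Mras rose by a log2 fold change of 0.73 and Rras2 fell by 1.27 with ethanol in WT mice, and Hras and Rras were lower in KO saline than in WT saline, at -1.34 and -1.54. Among the other GAPs and Spred proteins, Rasal2 (1.30) and Rasa3 (0.79) rose with ethanol in WT mice. Rasal2, Rasa2, Rasa3, Spred2 and Spred3 were higher in KO saline than in WT saline, with log2 fold changes from 0.91 to 1.52. Of the 3 other exchange factors 0 passed in WT mice in edgeR, and Rasgrp3 was higher in KO saline at 1.40. Of the feedback inhibitors, Spry4 rose by 1.53 in WT mice and was higher in KO saline at 2.16. Dusp5 was higher in KO saline at 2.12 (SE 0.95), but its means were near the floor, 0.17 CPM in WT saline and 1.24 CPM in KO saline. Of the kinases, Mapk3, which encodes ERK1, fell by 0.72 in WT mice and was lower in KO saline at -0.80, while the scaffold Ksr1 rose by 1.78 and was higher by 1.89. The adaptor Shc4 was higher in KO saline at 1.23. The edgeR adjusted p of the calls in this paragraph ran from 0.165 for Rasal2 to 0.299 for Mapk3, both in WT mice.

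Ksr2, a scaffold that holds Raf, MEK and ERK together, had the smallest p of the lists in WT mice. It had 0.92, 0.51 and 0.82 CPM in WT saline and 11.2, 5.93 and 2.99 CPM in WT ethanol, groups that did not overlap. The WT saline values, with a mean of 0.75 CPM, were near the floor and rest on few counts. Its log2 fold change was 3.08 (SE 0.65, edgeR adjusted p = 0.0967), and KO saline was higher than WT saline by 2.84 (SE 0.64, adjusted p = 0.147). Its model is long, at 13125 bases, and with the length and GC trend removed these values were 1.92 and 1.76, both past the level. Over 21 alternatives the value in WT mice ran from 0.60 to 3.61, and 17 of the 21 passed the level.

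Shc3, a neuronal adaptor between receptor tyrosine kinases and Grb2, had 1.10, 3.09 and 3.79 CPM with saline and 12.5, 12.2 and 8.78 with ethanol in WT mice. In KO mice it had 10.0, 17.9 and 22.2 CPM with saline and 7.26, 13.4 and 6.79 with ethanol. WT saline lay below the other 3 groups without overlap. Shc3 rose by a log2 fold change of 2.06 (SE 0.52, edgeR adjusted p = 0.150) with ethanol in WT mice, and the difference was 2.63 (SE 0.53, adjusted p = 0.128) for KO against WT with saline. Its model has 1537 bases, in the shortest quartile of genes, whose median in WT mice was -0.62, and with the trend removed its values were 2.19 and 2.97.

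Gab2, a docking protein for receptor signalling, rose from 23.2 ± 6.55 to 45.4 ± 4.44 CPM (SD, n = 3) with ethanol in WT mice, a log2 fold change of 0.98 (SE 0.35, edgeR adjusted p = 0.209), which became 0.29 (adjusted p = 0.595) with the length and GC trend removed. It had 41.5 ± 8.88 CPM in KO saline and 25.5 ± 7.71 in KO ethanol, and the ethanol difference in KO mice was -0.66 (SE 0.35, adjusted p = 0.999). Spred1 and Spred2, inhibitors that bring neurofibromin to the membrane, had the 2 smallest p of the lists for ethanol in KO mice, with log2 fold changes of -0.89 (SE 0.40) and -1.21 (SE 0.49) and an edgeR adjusted p of 0.999 each. Without the library labelled KO ethanol 12 these were -1.04 and -1.13, and with the trend removed 0.04 and -1.27.

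**Figure D5:**
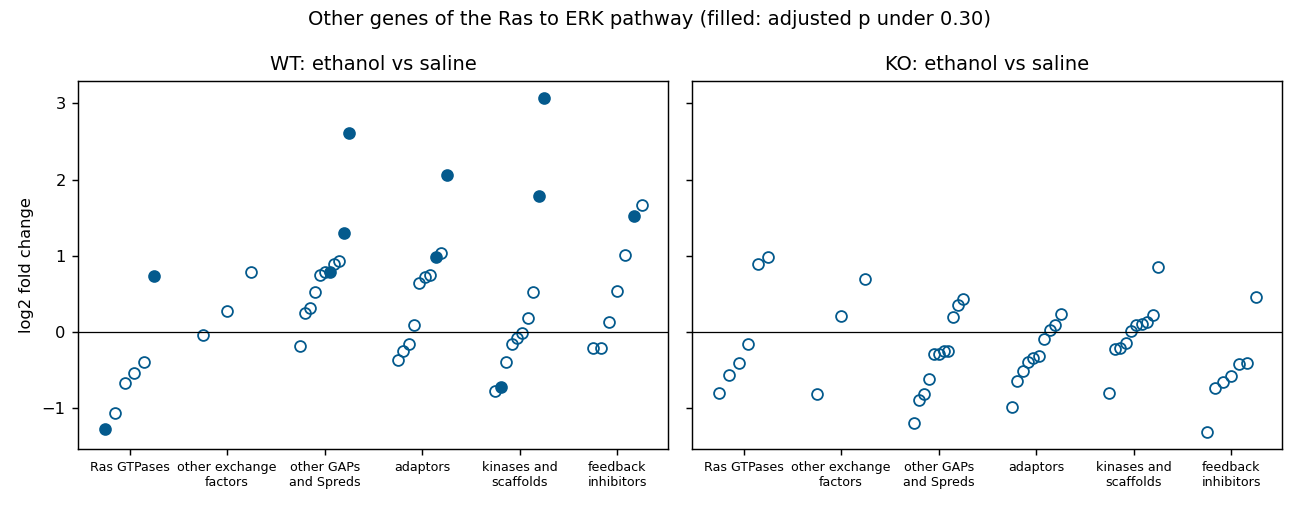
Log2 fold change for ethanol against saline on the y axis for the 47 other tested genes of the Ras to ERK pathway, by list on the x axis, in WT (left) and KO mice (right). Filled points passed the level of 0.30 on the edgeR adjusted p: 9 above 0 and 2 below 0 in WT mice and 0 in KO mice.

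Across the 12 libraries, the genes whose log2(CPM + 1) was most like that of Rasgrf1 were Xrra1 (Pearson r = 0.93), C130046K22Rik (0.92), Erg (0.90), Fgf1 (0.89) and Utp14b (0.89), of 14738 other genes. These correlations describe the same 12 libraries and share their depth and their 4 groups. Fgf1, which encodes a growth factor whose receptors act through Ras, had 9.86 ± 1.88 CPM with saline and 24.5 ± 10.7 with ethanol in WT mice, and 15.2 ± 2.31 and 18.7 ± 5.59 CPM in KO mice (SD, n = 3). Xrra1 was at or below 1.98 CPM in all 12 libraries, and its likeness rests on few counts. C130046K22Rik, Erg and Utp14b were low too, with means of 1.95, 1.22 and 0.81 CPM in WT saline. Among the other members r ran from -0.08 for Rasa1 to 0.51 for Rasgrp1.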

How the data were processed

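RNA from somatosensory cortex of 12 male P7 mice was sequenced as single-end reads. The authors aligned the reads to mm10 and RefSeq with Bowtie2 within TopHat and estimated transcript levels in Partek (versions and settings are not given in the sources used here). The authors deposited estimated counts per transcript and, in separate tables, RPKM per transcript. Sorted within each library, the summed RPKM per transcript or gene had nearly the same distribution in all 12 libraries. At 99.8% of 20504 ranks the RPKM of the 12 libraries lay within 0.1% of each other. The limma fits on RPKM thus differ from the other fits in scaling as well as in the test. Part of the samples were cut from cryosections by laser and the later ones punched from frozen brains. Which library was taken in which way, and which shared a litter or day, is not given in the sources used here.

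Estimated counts were summed per symbol and rounded. The p-values of the main fit rest on the spread between animals within groups, estimated jointly over all groups. A contrast of some groups thus also depends on the libraries of the others. edgeR 4.0.16 in R 4.3.3 (TMM, filterByExpr with a minimum count of 10, quasi-likelihood test, 1 mean per group over 12 libraries) gave 5 contrasts, with Benjamini-Hochberg adjustment over 14739 genes or 21715 transcripts and a level of 0.30, that of the study. SE is the absolute log2 fold change divided by the root of F. Fold changes share WT saline where noted. The RefSeq names of the files' transcripts, matched to GENCODE vM21, gave transcript length and GC content for 98.9% of genes tested.

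The members and lists were chosen with earlier results of these data known. Named were all members with each transcript, the 2 pathway genes with the smallest p in each contrast and the 5 genes most like Rasgrf1. A gene of the pathway lists is included in their counts but is not reported here. Alternatives were DESeq2 1.42.0, no TMM factors, 2 other filters, limma 3.58.1 on log2(RPKM + 1) and log2(RPKM + 0.1), the opening letter of the libraries' names as a covariate, leaving out the 2 libraries whose letter is L (WT saline 3 and KO ethanol 12), only the groups compared, removal of the length and GC trend (splines with 5 degrees of freedom), the most abundant transcript alone, and each library left out. The transcript fit without KO ethanol 12, and the alternatives for the pathway genes, were added after seeing the data. On simulated counts for WT ethanol against WT saline over 14536 genes, edgeR found 42% of 50 genes changed 2-fold and 100% of 50 changed 4-fold, with 76 false calls. The simulation gave every gene the same spread beyond counting error and changed only well-counted genes. It held no trend with length or GC content and no outlying library, so its rates do not carry over to these data. Figures were drawn with matplotlib 3.10.9.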

Additional observations from a re-analysis of the deposited data

Results flagged for a closer look

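In 4 other genes of the Ras to ERK pathway the ethanol effect differed between the genotypes by the edgeR test of the difference itself, with an adjusted p of 0.250 for each over 14739 genes. The KO effect minus the WT effect on the log2 scale was -3.06 (SE 0.86) for Ksr2, -3.05 (SE 0.73) for Shc3, -2.09 (SE 0.69) for Spred2 and -1.63 (SE 0.50) for Gab2. Each of the 4 had a higher mean in WT ethanol than in WT saline. Ksr2 was near the floor in WT saline, with a mean of 0.75 CPM. With saline, the 4 were also higher in KO than in WT mice, and the test uses the same WT saline libraries. Over all genes, 11.1% passed this test, 1632 in number. Over the 47 tested pathway genes 21.3% passed, 9 below 0, these 4 among them, and 1 above 0, Hras at 2.05 (SE 0.78). Hras had 101 ± 5.88 CPM in KO saline and 202 ± 200 in KO ethanol (SD, n = 3), so its value rests on KO ethanol libraries that lay far apart. Without WT ethanol 4, KO saline 8 or KO saline 9, and with the letter of the library names as a covariate, 0 genes passed in edgeR, so the 4 calls were lost too, as they were without WT saline 1, where 20 genes passed. With the length and GC trend removed 27 genes passed and without KO ethanol 12 35 did, and of the 4 genes Shc3 was among them in both, at -3.57 and -3.31. Ksr2 passed in 11 of 20 alternatives, with adjusted p from 0.0487 to 0.636, and Shc3 in 13 of 20, from 0.00964 to 0.506. Spred2 passed in 9 of 20, from 0.0949 to 0.507, and Gab2 in 11 of 21, from 0.0619 to 0.563.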

How the results depend on the processing

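In 11 alternatives and 12 fits that each left out a library, the sign of the Rasgrf1 estimate was kept in all 5 contrasts, except that the fit with only the groups compared gives no difference between the genotypes. In WT mice its log2 fold change ran from 1.52 on log2(RPKM + 1) to 3.81 for the long transcript alone, and from 2.53 to 3.15 with a library left out. The shallow libraries KO ethanol 12 and WT saline 3 limit what the counts of single members can show. No paired analysis was possible because the groups share no library number.

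The counts of members in this paragraph include Rasgrf1, which was chosen on these contrasts, so nothing is read from its place in them. A count of 1 in WT ethanol, or for the difference between the genotypes, was Rasgrf1 alone. The count of members past the level in WT ethanol against WT saline, 2, became 5 without TMM factors, 4 without the 2 libraries named with L, and 1 under each limma fit, with only the groups compared and with the length and GC trend removed. It was 1 to 4 with a library left out, 4 without WT saline 3, and 1 without WT saline 1 or 13, WT ethanol 4, 5 or 14, KO saline 9 or KO ethanol 10. In KO saline against WT saline the count of 3 became 6 without TMM factors, 5 without the L libraries, and 0 under each limma fit and with the trend removed. It was 0 to 5 with a library left out, 5 without WT saline 3 and 0 without WT saline 1, KO saline 8 or KO saline 9. For the difference between the genotypes the count of 1 became 3 with DESeq2 and with at least 10 counts in every library, 4 without TMM factors and without the L libraries, and 0 under each limma fit, with the letter as a covariate and with the trend removed. It was 0 to 5 with a library left out, 5 without WT saline 3, 3 without KO saline 7, and 0 without WT saline 1, WT ethanol 4 or 14, KO saline 8 or 9, or KO ethanol 12. The count of all genes past the level moved as well. In WT ethanol, 3310 became 4051 without TMM factors, 8295 without the L libraries, 356 and 185 under limma, 39 with only the groups compared and 2347 with the trend removed, and with a library left out it ran from 71 without WT ethanol 4 to 7304 without WT saline 3. In KO saline, 3799 became 4051, 8435, 419 and 257 under limma, 2531 and 1614 in that order, and ran from 9 without KO saline 8 or 9 to 7556 without WT saline 3. For the difference between the genotypes, 1632 became 2678 with DESeq2, 1871 with at least 10 counts in every library, 2006 without TMM factors, 4322 without the L libraries, 16 and 5 under limma, 0 with the letter and 27 with the trend removed. It ran from 0 without WT ethanol 4, KO saline 8 or 9 to 5064 without WT saline 3. In the other 2 contrasts the count of members was 0 in every alternative.

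Estimates of single members turned direction in 29 fits, 20 of them on removing the length and GC trend. With it removed, ethanol in WT mice gave -0.0892 for Rasgrf2, -0.2804 for Sos1, -0.0778 for Sos2 and -0.4287 for Nf1, and ethanol in KO mice gave 0.293 for Sos1, 0.2692 for Sos2, 0.4217 for Rasgrp1 and 0.3966 for Nf1. KO against WT with saline gave -0.2279 for Sos1, -0.1219 for Sos2 and -0.4948 for Nf1, and with ethanol 0.3455 for Sos1, 0.2251 for Sos2, 0.4785 for Rasgrp1 and 0.3304 for Nf1. The difference between the genotypes gave 0.0128 for Rasgrf2, 0.5734 for Sos1, 0.347 for Sos2, 0.0289 for Rasgrp1 and 0.8252 for Nf1. With the letter as a covariate Rasa1 was -0.0242 for ethanol in WT mice. With a library left out, Rasgrf2 ran from -0.115 to 0.751 for ethanol in WT mice and from -0.0696 to 0.5256 for KO against WT with ethanol. Rasgrp1 ran from -0.5698 to 0.0391 for ethanol in KO mice and from -0.3834 to 0.1668 for KO against WT with ethanol, where Nf1 ran from -0.3957 to 0.0577. The cause of these turns was not tested.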
